A study of Ovis aries with 16 samples.

Results

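The genes at the head of the toll-like receptor pathway followed here in the frontal cortex of late gestation fetal sheep were CD14, TLR2, TLR4, MYD88 and NFKBIA. They were chosen by name, through the probe that the array files give for each gene, and they make up 5 of the 1025 different genes that could be named among the 15008 probes of the array. The sheep were 16 chronically catheterized fetuses, 1 array each, in 4 groups. In hypoxia control (n = 5) the ewe breathed a low-oxygen mixture for 30 min, in normoxia control (n = 3) the 30 min passed at normal oxygen, and in hypoxia + ketamine (n = 4) and normoxia + ketamine (n = 4) ketamine, a blocker of the NMDA type of glutamate receptor, was given intravenously at 3 mg/kg before the same 30 min. All 16 fetuses then had 23.5 h of normoxia, and the cortex was taken 24 h after the onset of the stimulus.

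Most of the fetuses were twins and the labels do not say which of them shared a ewe, so arrays were treated as separate fetuses. For 1 fetus the labels contradict each other. By title and code, and by the number of fetuses stated per group, it is hypoxia control replicate 1, and it was used as such. By source name and characteristics it is a normoxia fetus given ketamine, so results that rest on it are also given without it.

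Toll-like receptors are surface and endosomal proteins that recognize microbial products and molecules released by injured cells. CD14 hands such ligands to TLR4 and TLR2, the receptors recruit the adaptor MYD88, and the signal that follows frees the transcription factor NF-κB from its inhibitor IκBα, the product of NFKBIA. NFKBIA is itself a target gene of NF-κB, so its transcript is widely read as a sign of NF-κB activity. In the brain these receptors are found mainly on microglia and macrophages, and also on endothelium and astrocytes.

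Each gene was read by a probe of 60 bases, and the probe decides which stretch of the transcript a level stands for. The sequences below are those of the array files, 5′ to 3′, with no capitals because no part was singled out. The first of each gene is the probe that was followed.

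CD14: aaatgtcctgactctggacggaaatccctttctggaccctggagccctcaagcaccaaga
TLR2: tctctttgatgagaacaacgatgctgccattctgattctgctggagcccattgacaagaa
TLR2, second probe: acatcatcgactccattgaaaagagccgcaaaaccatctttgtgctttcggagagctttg
TLR4: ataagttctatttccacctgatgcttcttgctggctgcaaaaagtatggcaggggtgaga
TLR4, second probe: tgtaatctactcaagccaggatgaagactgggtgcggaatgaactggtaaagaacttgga
MYD88: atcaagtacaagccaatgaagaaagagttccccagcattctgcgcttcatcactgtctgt
MYD88, second probe: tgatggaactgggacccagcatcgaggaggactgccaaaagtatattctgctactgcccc
NFKBIA: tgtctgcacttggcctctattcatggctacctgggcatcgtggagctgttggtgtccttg

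The second probes are shown because they read the same genes at another place and did not always give the same result. CD14 has a second probe as well, shifted by 1 base so that the pair shares a run of 59 bases, and NFKBIA has 1 probe. The second TLR4 probe carries only a cluster name in the files and was tied to TLR4 through the accession listed with it. The followed probes hold between 45.0 and 55.0% G and C, and neither the TLR2 nor the TLR4 probe shares a run of more than 8 bases with a probe of any other toll-like receptor. Genome positions are not given here, because the array files list these probes as unmapped.

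Levels below are normalised log2 intensities, so a difference of 1 stands for a 2-fold change, and levels of different probes are not comparable with each other. A gene was called when limma gave an unadjusted P under 0.05, the threshold of the study's methods, in a fit over all probes and all 4 groups. No probe of the array passed adjustment for multiple tests in any comparison, and the lowest adjusted P was 0.317 for hypoxia control against normoxia control and 0.263 for hypoxia + ketamine against hypoxia control. The 5 followed probes were not saturated on any array. CD14, TLR2, MYD88 and NFKBIA were well above background on all 16 arrays and TLR4 on 14, the others being normoxia + ketamine replicate 1 and hypoxia + ketamine replicate 4. Because whole tissue was measured, fewer cells of a type and less RNA per cell cannot be told apart.

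At 24 h after the onset of hypoxia, transcripts of the co-receptor, of both receptors and of the NF-κB inhibitor were higher than in normoxia control, and that of the adaptor MYD88 was not called. By limma 4 of the 5 genes were called higher and 0 lower, where 3.34% of all probes were called higher and 4.64% lower. The range ran from 0.32 for TLR4 to 1.33 for NFKBIA on the log2 scale, against a median of -0.020 over all probes. NFKBIA and TLR2 were the genes in which every hypoxia control fetus lay above every normoxia control fetus, as did 2.11% of all probes.

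CD14, the surface protein that presents lipopolysaccharide and other ligands to the toll-like receptors, stood at 7.84, 8.01 and 8.17 in the normoxia control fetuses. In hypoxia control its level was 8.75, 9.60, 9.23, 9.18 and 8.03 in replicates 1 to 5. Replicates 1 to 4 lay above every fetus of the other 3 groups and replicate 5 lay inside the normoxia range, so the groups overlapped. The difference was 0.95 (SE 0.25, limma adjusted P = 0.320), or 1.94-fold, and the two-sided exact permutation test between fetuses gave p = 0.0714.

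TLR2, which pairs with TLR1 or TLR6 to bind lipoproteins, stood at 7.37, 7.57 and 7.69 in normoxia control. The hypoxia control fetuses were at 8.05, 7.91, 8.09, 8.66 and 7.74, all above the highest normoxia control fetus, with replicate 4 far the highest and replicate 5 closest to normoxia. The difference was 0.55 (SE 0.15, limma adjusted P = 0.322), or 1.46-fold, with an exact permutation p = 0.0357. That is the smallest p that 5 against 3 fetuses allow.

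TLR4, the receptor for lipopolysaccharide and for several proteins released from damaged cells, showed the smallest of the called differences. Its level was 7.19, 7.07 and 7.12 in normoxia control and 7.48, 7.68, 7.30, 7.56 and 7.19 in hypoxia control. Replicate 5 again lay among the normoxia fetuses and the other 4 lay above them. The difference was 0.32 (SE 0.11, limma adjusted P = 0.488), or 1.25-fold, and the exact permutation test gave p = 0.0714.

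MYD88, the adaptor that links most toll-like receptors to their kinases, stood at 7.36, 7.31 and 7.10 in normoxia control. In hypoxia control the values were 7.24, 7.45, 7.22, 8.29 and 7.22. Replicate 4 stood apart from all other fetuses, and the remaining 4 lay between 7.22 and 7.45, overlapping the normoxia range. The difference of 0.23 (SE 0.19, limma adjusted P = 0.825) was not called, its 95% interval ran from -0.17 to 0.63, and the exact permutation test gave p = 0.429. Without replicate 4 the difference was 0.03.

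NFKBIA, whose product holds NF-κB in the cytoplasm, gave the largest difference of the 5. Its level was 10.59, 10.80 and 10.52 in normoxia control and 12.75, 11.57, 11.95, 12.72 and 10.86 in hypoxia control. Replicates 1 and 4 lay 2.11 and 2.08 above the normoxia control mean, replicates 2 and 3 lay 0.93 and 1.31 above it, and replicate 5 lay 0.23 above it. The groups did not overlap, the difference was 1.33 (SE 0.35, limma adjusted P = 0.320), or 2.52-fold, and the exact permutation p was 0.0357.

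**Figure D1:**
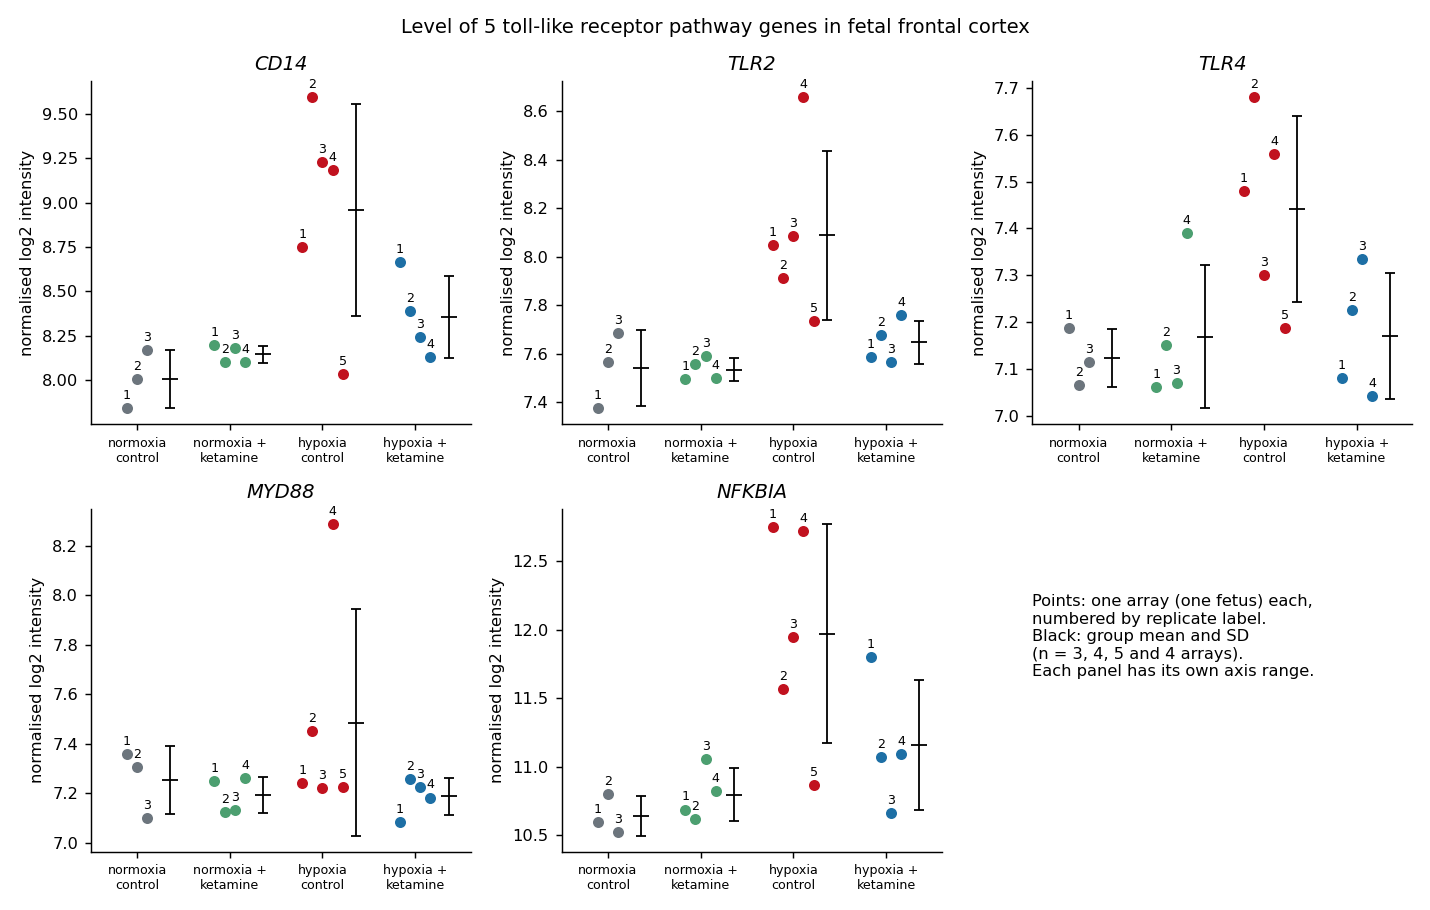
Normalised log2 intensity (vertical axis, its own range in each panel) of CD14, TLR2, TLR4, MYD88 and NFKBIA in the 4 groups, with 1 point per fetus numbered by replicate and the group mean with its SD in black. Hypoxia control has the highest mean and the widest spread in all 5 panels, and its replicate 5 lies near the normoxia control fetuses.

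The hypoxia control group had the largest SD in each of the 5 genes. It was 0.60 for CD14, 0.35 for TLR2, 0.20 for TLR4, 0.46 for MYD88 and 0.80 for NFKBIA, against a range over these genes of 0.06 to 0.17 in normoxia control, 0.05 to 0.19 in normoxia + ketamine and 0.07 to 0.47 in hypoxia + ketamine, where NFKBIA had 0.47 and CD14 0.23. Replicate 5 was the lowest of its group in 4 of the 5 genes, and was above every normoxia control fetus in 2 of them. Replicate 4 was above every fetus of the other groups in all 5 genes, replicates 1 and 2 in 4, and replicate 3 in 3.

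**Figure D2:**
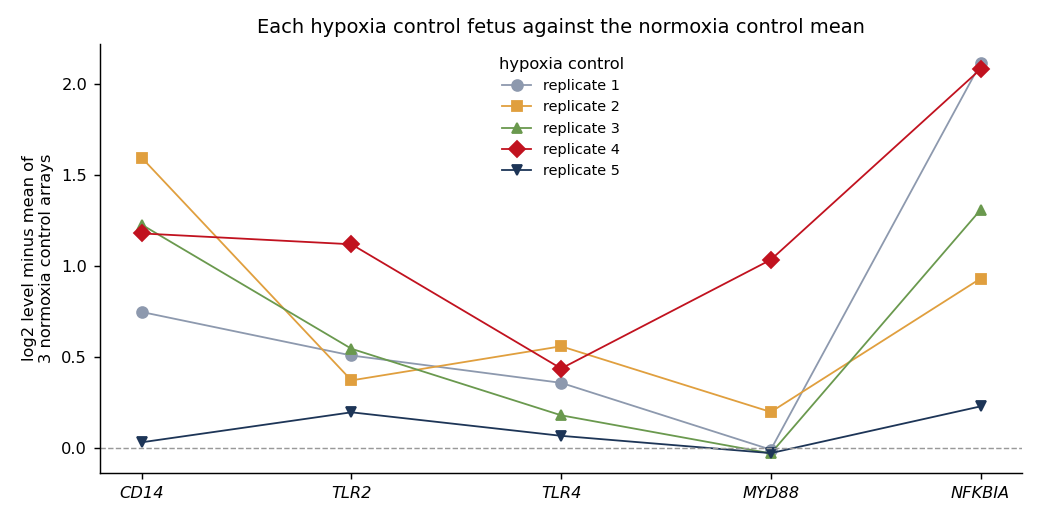
Level of each of the 5 hypoxia control fetuses minus the mean of the 3 normoxia control fetuses (vertical axis, log2 units) for the 5 genes along the horizontal axis, with 1 line per fetus that joins its values. Replicate 5 stays between -0.03 and 0.23, and for MYD88 replicate 4 alone, at 1.03, is away from the rest.

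The fetuses did not keep the same order from gene to gene. Replicate 2 was the highest for CD14 and TLR4, replicate 4 for TLR2 and MYD88, and replicate 1 for NFKBIA. Without replicate 1, the fetus with conflicting labels, all 4 calls against normoxia control stood, with differences of 1.01 for CD14, 0.56 for TLR2, 0.31 for TLR4 and 1.14 for NFKBIA. When replicate 1 was instead counted in normoxia + ketamine the same 4 genes were called, at the same differences.

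With ketamine before hypoxia, the same 4 genes were called lower than in hypoxia control and 0 of the 5 higher, where 3.56% of all probes were called lower and 5.49% higher. The differences ran from -0.27 for TLR4 to -0.81 for NFKBIA, and the median over all probes was 0.018. In none of the 5 genes were the hypoxia + ketamine fetuses all below the hypoxia control fetuses, as they were in 0.569% of all probes. Both comparisons share the hypoxia control arrays, so the calls in them are not independent of each other.

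For CD14 the hypoxia + ketamine fetuses were at 8.66, 8.39, 8.24 and 8.13, below replicates 1 to 4 of hypoxia control and above replicate 5. The difference was -0.60 (SE 0.23, limma adjusted P = 0.495), so hypoxia control was 1.52-fold higher, and the exact permutation test gave p = 0.127. The call ended without hypoxia control replicate 2, at -0.44, and without hypoxia + ketamine replicate 4, at -0.53.

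TLR2 stood at 7.59, 7.68, 7.57 and 7.76 in hypoxia + ketamine. Replicates 1, 2 and 3 of these lay below every hypoxia control fetus, and replicate 4 lay just above hypoxia control replicate 5. The difference was -0.44 (SE 0.14, limma adjusted P = 0.430), and TLR2 was the gene of the 5 with the smallest exact permutation p, 0.0317. The call held in each of the 16 fits that left out an array, with differences between -0.53 and -0.30.

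TLR4 was at 7.08, 7.23, 7.33 and 7.04 in hypoxia + ketamine, with replicates 1 and 4 below every hypoxia control fetus. The difference was -0.27 (SE 0.10, limma adjusted P = 0.488) with an exact permutation p = 0.0794, and without hypoxia + ketamine replicate 4, an array on which the probe was not well above background, it was -0.23 and no longer called. MYD88 was at 7.08, 7.26, 7.22 and 7.18. Its difference of -0.30 (SE 0.17, limma adjusted P = 0.618) was not called, with a 95% interval from -0.66 to 0.07 and an exact permutation p = 0.143, and it was -0.10 without hypoxia control replicate 4.

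NFKBIA was at 11.80, 11.07, 10.66 and 11.09 in hypoxia + ketamine. Replicates 1, 2 and 4 lay inside the hypoxia control range, replicate 1 above and replicates 2 and 4 below replicate 2 of that group. All of these also lay above the highest fetus of both groups under normoxia. Replicate 3 lay inside the normoxia range and below every hypoxia control fetus. The difference was -0.81 (SE 0.32, limma adjusted P = 0.517), so hypoxia control was 1.76-fold higher, with an exact permutation p = 0.159. The call rested on single arrays: it ended without hypoxia control replicate 1 (-0.62), without hypoxia control replicate 4 (-0.63), and without hypoxia + ketamine replicate 3 (-0.65). It also ended, at -0.62, with replicate 1 counted in normoxia + ketamine.

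Under normoxia ketamine was followed by no called difference. The normoxia + ketamine fetuses were at 8.20, 8.10, 8.18 and 8.10 for CD14, at 7.49, 7.56, 7.59 and 7.50 for TLR2 and at 7.06, 7.15, 7.07 and 7.39 for TLR4. They were at 7.25, 7.12, 7.13 and 7.26 for MYD88 and at 10.69, 10.61, 11.05 and 10.82 for NFKBIA. These values, at the followed probes, overlapped normoxia control in all 5 genes. By limma 0 of the 5 genes had an unadjusted P under 0.05 in this comparison, where 2.31% of all probes did, with differences between -0.06 for MYD88 and 0.16 for NFKBIA. The 95% intervals still allow sizeable differences, from -0.34 to 0.32 for TLR2 and from -0.63 to 0.94 for NFKBIA, and the exact permutation p lay between 0.171 and 0.971, with 0.0571 the smallest that 4 against 3 fetuses allow. With hypoxia control replicate 1 counted in normoxia + ketamine the NFKBIA difference was 0.55, also not called.

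The effect of hypoxia among the ketamine-treated fetuses was also not called in any of the 5 genes, against 6.86% of all probes called. Hypoxia + ketamine minus normoxia + ketamine was 0.21 for CD14 (95% interval -0.30 to 0.72), 0.11 for TLR2 (-0.19 to 0.42), 0.0017 for TLR4 (-0.22 to 0.23), -0.0043 for MYD88 (-0.39 to 0.38) and 0.36 for NFKBIA (-0.37 to 1.09). For CD14 and NFKBIA 3 of 4 hypoxia + ketamine fetuses lay above every normoxia + ketamine fetus. The exact permutation p lay between 0.0857, for TLR2, and 1.00. With hypoxia control replicate 1 counted in normoxia + ketamine, hypoxia + ketamine lay slightly below that group for NFKBIA and TLR4, and none of the 5 genes was called. Against normoxia control the hypoxia + ketamine group was 0.35 higher for CD14 and 0.52 higher for NFKBIA, with intervals from -0.20 to 0.91 and from -0.27 to 1.31, and 0 of 5 genes were called where 3.77% of all probes were. When 1 array was left out the NFKBIA value lay between 0.30 and 0.68.

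**Figure D3:**
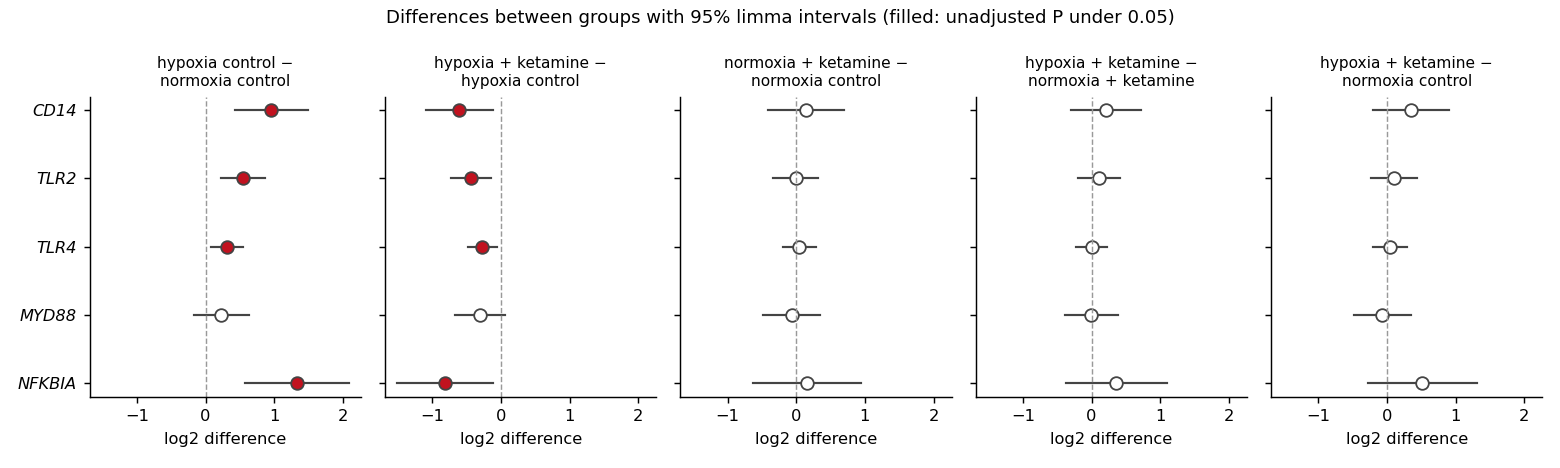
Difference between groups (horizontal axis, log2 units, first group minus second as named above each panel) for CD14, TLR2, TLR4, MYD88 and NFKBIA, as a point with its 95% limma interval, filled where the unadjusted P was under 0.05. Filled points appear for 4 genes right of 0 in hypoxia control minus normoxia control and for the same 4 left of 0 in hypoxia + ketamine minus hypoxia control, and in no other panel.

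A call in one of these comparisons and none in another does not show that they differ, so the difference between the hypoxia effects with and without ketamine was tested as an interaction. It was called for CD14, at -0.74 (SE 0.35, 95% interval -1.48 to -0.0048, limma adjusted P = 0.779), and 1 of 5 genes called lower stands beside 2.41% of all probes. For TLR2 it was -0.43, for TLR4 -0.32, for MYD88 -0.23 and for NFKBIA -0.97, with intervals that reached 0.01, 0.01, 0.32 and 0.08 at their upper ends. With the mean signal scaled to the 75th percentile these turned to 0.32 for TLR2, 0.60 for TLR4 and 0.67 for MYD88, where the median of all probes was 0.51, and stayed below 0 for CD14, at -0.29, and for NFKBIA, with none of the 5 called. The interaction of CD14 had an unadjusted limma P of 0.0487, and its call ended in 12 of the 16 fits that left out an array, where it lay between -0.97 and -0.58. Without hypoxia control replicate 5 the interaction was called for 4 of the 5 genes, and for 0 without normoxia control replicate 1 or 2, normoxia + ketamine replicate 2 or 4, or hypoxia + ketamine replicate 2. The interaction of MYD88 was -0.03 without hypoxia control replicate 4. Markers of other cell types were called in the same interaction. These were the neuron gene GRIN1 at -0.63 (SE 0.27), the astrocyte gene GFAP at -0.70 and the endothelial gene OCLN at 0.54. Of the 4 astrocyte markers 1 was higher and 3 lower, with a median of -0.15. Of the 5 endothelial markers 2 were higher and 3 lower, with a median of -0.04, so most went against OCLN. The part of these markers in the CD14 value was not tested.

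Of the 4 groups hypoxia control had the highest mean level in all 5 genes. Hypoxia + ketamine came next for CD14, TLR2, TLR4 and NFKBIA, at 8.36, 7.65, 7.17 and 11.16, for TLR4 by 0.0017 only, and its neighbour in that order, normoxia + ketamine for CD14, TLR4 and NFKBIA and normoxia control for TLR2, was not called against it by limma. For MYD88 normoxia control came next, at 7.25, and both ketamine groups were at 7.19, with hypoxia + ketamine the lowest. With hypoxia control replicate 1 counted in normoxia + ketamine, it was normoxia + ketamine that came next for TLR4 and NFKBIA.

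The arrays were on 2 slides and each group was on both, so each difference was also taken within a slide. Hypoxia control minus normoxia control was 1.25 and 0.64 for CD14, 0.51 and 0.47 for TLR2, 0.45 and 0.23 for TLR4, and 1.46 and 1.32 for NFKBIA on slides 1 and 2. For MYD88 it was 0.01 and 0.48. Hypoxia + ketamine minus hypoxia control was below 0 on both slides in all 5 genes, from -0.16 to -0.97. Hypoxia + ketamine minus normoxia + ketamine was 0.79 and -0.06 for NFKBIA and 0.38 and 0.04 for CD14 on slides 1 and 2, and without hypoxia + ketamine replicate 1 it was 0.15 for NFKBIA and 0.11 for CD14 over both slides. Hypoxia + ketamine minus normoxia control was 0.74 and 0.35 for NFKBIA and 0.60 and 0.01 for CD14 on slides 1 and 2. Fitted on slide 2 alone, where normoxia control had 1 array, 0 of the 5 genes were called in these comparisons. Fitted on slide 1 alone, NFKBIA was no longer called in hypoxia + ketamine against hypoxia control, at -0.72.

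The sizes depended on the signal and on the scaling. With the scanner's own processed signal, quantile normalized like the main values, hypoxia control minus normoxia control was 0.86 for TLR4, 1.02 for TLR2, 1.45 for CD14, 0.46 for MYD88 and 1.37 for NFKBIA. Hypoxia + ketamine minus hypoxia control was then -0.85, -0.79, -0.85, -0.68 and -0.85 in the same order. With the scanner's own processed signal scaled to the 75th percentile, the differences after hypoxia ran from 0.53 for MYD88 to 1.52 for CD14, with TLR4 at 0.96 and TLR2 at 1.12. With the mean signal scaled to the 75th percentile, in place of quantile normalization, TLR4 was at 0.07 after hypoxia and at -0.03 with ketamine before it, and TLR2 at 0.39 and -0.19, none of them called.

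The second probes gave a check on the stretch of transcript that was read. For TLR2 the second probe, which shares no run of more than 7 bases with the first, gave 7.24, 7.40 and 7.58 in normoxia control and 7.81, 7.85, 8.09, 8.38 and 7.60 in hypoxia control. These groups did not overlap either, the difference was 0.54 (SE 0.15), and hypoxia + ketamine was lower than hypoxia control by the called difference of -0.54 (SE 0.13). The interaction was called at this probe, at -0.55 (SE 0.20), and not at the first. The pair correlated at r = 0.957 over the 16 arrays, a description, since both probes were read from the same RNA. The first TLR2 probe was printed at 5 spots of each array, whose SD had a median of 0.13 over arrays.

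The shifted CD14 probe read 7.92, 8.06 and 7.97 in normoxia control and 8.72, 9.54, 9.22, 9.18 and 8.09 in hypoxia control. Here replicate 5 lay just above the highest normoxia control fetus, so these groups did not overlap, the difference was 0.97 and the exact permutation p was 0.0357. At this probe all 4 normoxia + ketamine and all 4 hypoxia + ketamine fetuses also lay above the 3 normoxia control fetuses, by 0.15 and 0.37, with an exact permutation p of 0.0571 each and no call by limma. The interaction was called here too, at -0.74 (SE 0.33). The probes of CD14 correlated at r = 0.990, and the SD of the difference between them over the 16 arrays was 0.07.

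TLR4 and MYD88 were different. The second TLR4 probe was well above background on 6 of 16 arrays. It read 7.56, 6.81 and 6.86 in normoxia control and 7.13, 7.32, 7.04, 6.88 and 6.91 in hypoxia control, with the highest value of all 16 arrays in normoxia control replicate 1. The difference was -0.021 (SE 0.15) and was not called, and hypoxia + ketamine minus hypoxia control was -0.21 (SE 0.13), also not called. The second MYD88 probe was well above background on 2 of 16 arrays and its differences were -0.04 and -0.06. Its reading of hypoxia control replicate 4 was 6.99, on an array where it was not well above background, so it bears little on the high value at the first probe.

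**Figure D4:**
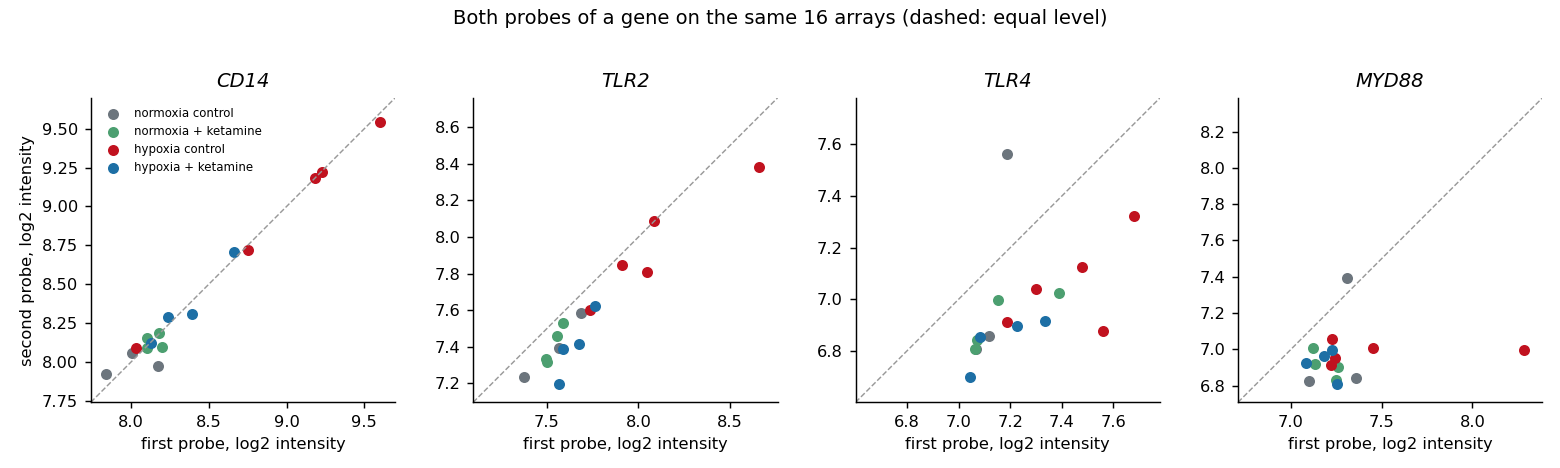
Level at the second probe (vertical axis) against the level at the followed probe (horizontal axis), both in normalised log2 intensity, for CD14, TLR2, TLR4 and MYD88, with 1 point per array coloured by group and a dashed line of equal level. The points of CD14 and TLR2 follow a line (r = 0.990 and 0.957), while those of TLR4 and MYD88 do not (r = 0.484 and 0.138).

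The array holds 15 probes for 8 other toll-like receptors, TLR1, TLR3, TLR5, TLR6, TLR7, TLR8, TLR9 and TLR10, the last tied to its gene by the file's description. In hypoxia control against normoxia control 0 of these 15 probes were called by limma, with differences from -0.24 to 0.14, where 3.34% of all probes were called higher and 4.64% lower. In hypoxia + ketamine against hypoxia control 0 were called, from -0.08 to 0.20, where 5.49% of all probes were called higher and 3.56% lower. With 15 probes, 0 calls is near these shares. The 5 probes of TLR1, TLR8 and TLR9, the last a receptor for bacterial DNA, were not well above background on any array, so they bear little on a change. TLR6, the partner of TLR2, was well above background on all arrays at 2 of its 3 probes, which differed by 0.03 and 0.06 after hypoxia. TLR3, a receptor for double-stranded RNA, was well above background on all arrays at both probes, which differed by 0.12 and 0.14. Whether TLR2 and TLR4 differed from the other receptors was not tested. In the other 3 comparisons between groups 1 of the 15 probes was called each time: a TLR7 probe 0.22 higher in normoxia + ketamine than in normoxia control, a TLR3 probe 0.19 higher in hypoxia + ketamine than in normoxia + ketamine, and a TLR8 probe 0.16 higher in hypoxia + ketamine than in normoxia control. Of all probes 2.31%, 6.86% and 3.77% were called in these comparisons, so 1 of 15 is near the background.

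**Figure D5:**
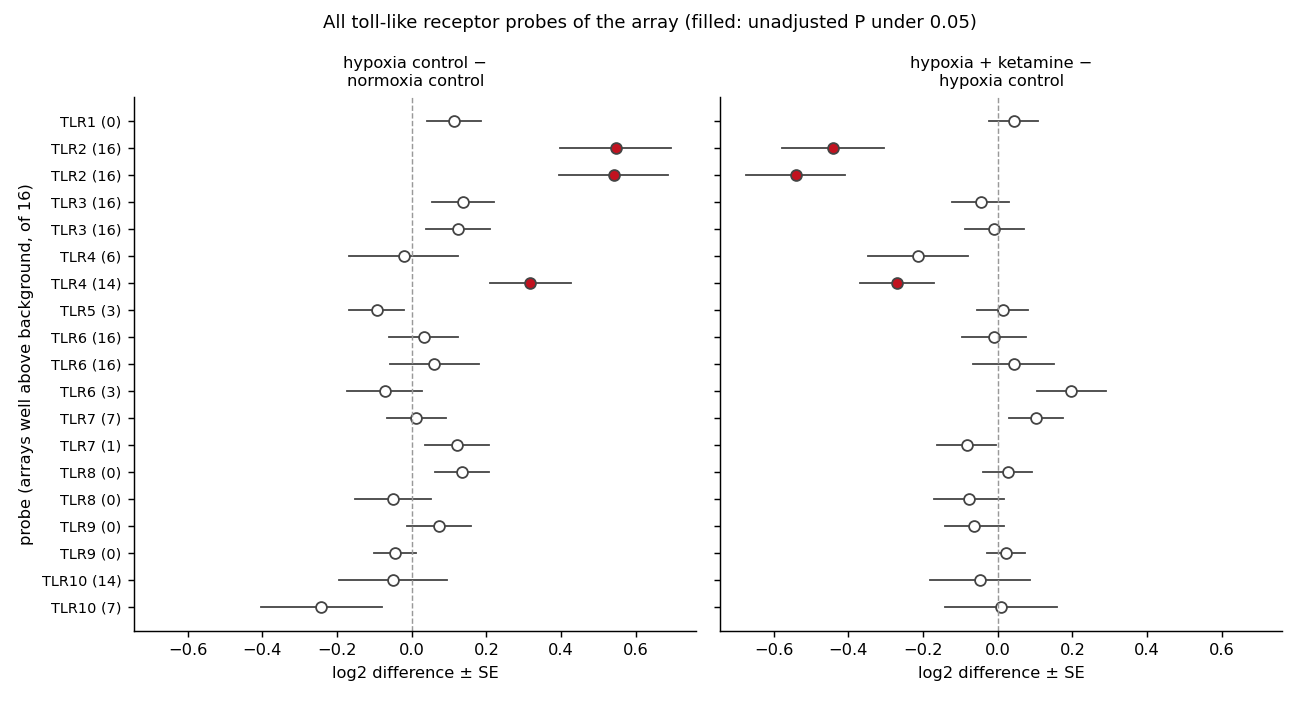
Difference with its SE (horizontal axis, log2 units) of each toll-like receptor probe of the array, named on the vertical axis with the number of arrays of 16 on which it was well above background, for hypoxia control minus normoxia control (left) and hypoxia + ketamine minus hypoxia control (right). Filled points, with an unadjusted P under 0.05, are those of both TLR2 probes and of the TLR4 probe that was followed.

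Further genes of the pathway were taken from a list of 98 besides the 5, of which 27 could be named on the array. In hypoxia control 6 of the 27 were called higher and 0 lower, with a median of 0.07, where 3.34% of all probes were called higher. With ketamine before hypoxia 0 were called higher and 2 lower (7.41%), with a median of -0.08, where 3.56% of all probes were called lower. None of the 18 listed IκB kinases, NF-κB subunits and inhibitors could be named on the array, so NFKBIA is the sole reading of that step here. Of the adaptors and kinases next to MYD88, IRAK4 was at 0.17 and TRAF3 at -0.09 after hypoxia, and neither was called.

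The called genes were mostly products of the pathway. CXCL10, an interferon-induced chemokine for T cells, was 4.14 higher (SE 1.41), and CD86, a co-stimulatory protein of antigen-presenting cells, was 0.60 higher (SE 0.20), and in both the groups did not overlap. CXCL8, the neutrophil chemokine interleukin-8, was 1.68 higher (SE 0.71), and TNF was 0.51 higher (SE 0.19). RAC1, a small GTPase of the PI3 kinase branch, was 0.22 higher (SE 0.09). The lowest limma adjusted P among the 6 called genes was 0.488. IL1B and CD40, at 0.54 (SE 0.28) and 1.45 (SE 0.73), were not called.

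With ketamine before hypoxia the called genes were CXCL8, at -1.42 (SE 0.65), and RAC1, at -0.21 (SE 0.09). CXCL10 was at -2.06 (SE 1.30), TNF at -0.38 (SE 0.18), CD86 at -0.37 (SE 0.18) and CD40 at -1.31 (SE 0.67), and none of these 4 was called. Between hypoxia + ketamine and normoxia + ketamine 2 of the 27 were called higher and 1 lower, where 6.86% of all probes were called. IL12A was higher by 0.36, TLR3 higher by 0.19 and TRAF3 lower, at -0.24, and this count is near the background. The count of pathway genes called after hypoxia depended on the normoxia control arrays, and was 2 without replicate 2 and 3 without replicate 3 of that group. The count of 2 with ketamine before hypoxia moved, to between 0 and 5, in 15 of the 16 fits that left out an array.

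Markers of microglia and macrophages, the cells that carry most CD14 and toll-like receptors in the brain, were looked at beside the 5 genes. Of 24 listed markers 7 could be named on the array. The integrin ITGAM and the oxidase subunit CYBB were well above background on 4 and 2 arrays only. After hypoxia 6 of the 7 were above normoxia control and 1, the Fc receptor chain FCER1G at 0.50 (SE 0.18), was called, with a median of 0.33, where 3.34% of all probes were called higher and 4.64% lower. With ketamine before hypoxia 6 of the 7 were lower and 0 were called, where 3.56% of all probes were called lower and 5.49% higher. Their median was then -0.23, and between -0.33 and -0.12 when 1 array was left out. The summed intensity of the 7 markers ran from 4545 to 5418 in normoxia control, 4665 to 5883 in normoxia + ketamine, 5357 to 8771 in hypoxia control and 4496 to 6897 in hypoxia + ketamine. The part of these cells in the levels of the 5 genes was not tested.

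Among markers of other cell types 5 lists held 1 called gene each after hypoxia, where 3.34% of all probes were called higher and 4.64% lower, and of the neutrophil markers LTF was not called and MMP9 was not well above background on any array. In hypoxia + ketamine against hypoxia control, given below beside the values after hypoxia, 3.56% of all probes were called lower and 5.49% higher. Of 4 astrocyte markers 1 was called, GFAP, which was 0.79 higher after hypoxia and 0.54 lower with ketamine before it, and the median of the 4 after hypoxia was 0.06. Of 3 red blood cell markers 1 was called after hypoxia, the haemoglobin chaperone AHSP at 0.89. All 3 were higher after hypoxia, CA1 among them though it was not well above background on any array, with a median of 0.59, and all 3 lower with ketamine before it, with a median of -0.30 and 0 called. The median after hypoxia was 0.99 without normoxia control replicate 1, 0.27 without normoxia control replicate 3 and 0.25 without hypoxia control replicate 5. Of 4 choroid plexus markers 2 were higher and 2 lower after hypoxia, with a median of 0.04, and TTR was called, at -4.30 (SE 1.64). With ketamine before hypoxia 3 of the 4 were lower and 0 called, with a median of -0.34, between -0.43 and -0.19 when 1 array was left out. All 4 were lower in hypoxia + ketamine than in either normoxia group, with 0 called. The summed choroid plexus intensities ranged from 10939 to 82619 among normoxia control fetuses and from 9033 to 26065 in normoxia + ketamine. They ranged from 9492 to 34866 in hypoxia control and from 6426 to 17120 in hypoxia + ketamine. Of 5 endothelial markers 2 were higher and 3 lower after hypoxia, with a median of -0.09, and OCLN was called, at -0.38 after hypoxia and at 0.43 with ketamine before it. With ketamine before hypoxia 2 of the 5 were higher and 3 lower. Of 5 lymphocyte markers CD5 was called, 0.90 higher after hypoxia and at -0.46 with ketamine before it, and the median after hypoxia was 0.10. After hypoxia 4 of the 5 were higher and 1 lower, and with ketamine before it 2 were higher and 3 lower. The 5 include CD4, which was not well above background on any array. The smaller of the medians after hypoxia were not stable. That of the astrocyte markers was 0.22 and 0.34 with the scanner's processed signal, quantile normalized and scaled to the 75th percentile, that of the lymphocyte markers was -0.04 without normoxia control replicate 3, and that of the choroid plexus markers lay between -0.17 and 0.20 when 1 array was left out. Of the neuron markers only GRIN1, an NMDA receptor subunit, could be named on the array, and it was well above background on all 16 arrays. GRIN1 was at -0.0061 after hypoxia and was called lower in hypoxia + ketamine than in normoxia + ketamine, at -0.63 (SE 0.18). No oligodendrocyte marker could be named. The part of any of these in the 5 genes was not tested.

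The levels of the 5 genes were also compared with each other across fetuses. Over the 16 arrays Pearson's r lay between 0.47 and 0.84 for the 10 pairs, and 8 pairs passed a permutation test after Benjamini-Hochberg adjustment over the 10. By Spearman's rho, between 0.02 and 0.76, 3 pairs passed. These tests pool groups whose means differ. Taken as deviations from the group means r lay between 0.16 and 0.73, and was 0.17 for TLR2 and TLR4, 0.16 for TLR4 and NFKBIA, 0.38 for TLR2 and CD14 and 0.62 for TLR2 and NFKBIA. The closest pair was TLR2 and NFKBIA, at r = 0.84 (permutation test, adjusted p = 0.0020) and rho = 0.76. MYD88 and NFKBIA, at r = 0.53, and CD14 and MYD88, at r = 0.47, did not pass.

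Without the 2 arrays farthest from the median of the first gene of a pair, 3 of the 10 pairs passed, those of TLR2 with CD14, TLR2 with NFKBIA and CD14 with NFKBIA. Of the relations of MYD88, r fell from 0.76 to 0.12 for TLR2, from 0.59 to 0.32 for TLR4 and from 0.53 to -0.09 for NFKBIA, so these rested on the arrays left out. Hypoxia control replicate 4, the fetus with the high MYD88 level, was among those arrays each time. For CD14 with MYD88 replicates 2 and 3 of that group were left out and replicate 4 was kept, so this is not the same check. There r was 0.63 in place of 0.47, with neither value passing, and rho over all 16 arrays was 0.08. Among the 11 fetuses outside hypoxia control r ran from -0.59, for CD14 and MYD88, to 0.78, for CD14 and NFKBIA. Within a slide, of 8 arrays each, r lay between -0.08 and 0.85 on slide 1 and between 0.59 and 0.95 on slide 2.

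The genes whose levels were most like each of the 5 over the 16 arrays, among 1020 other named genes, are given as a description. For TLR2 they were SELP (r = 0.898) and ICAM1 (0.895), adhesion molecules of activated endothelium, and CCN1 (0.884), a matrix protein. For TLR4 they were the pentraxin PTX3 (0.858), XDH (0.791) and IL1RN (0.785), of which XDH and IL1RN were well above background on 1 and 2 arrays. For CD14 they were PDXK (0.916), the pyridoxal kinase, IGFBP3 (0.914), a binding protein of insulin-like growth factors, and SLC11A1 (0.855), a metal transporter of macrophages. For NFKBIA they were RCAN1 (0.933), a regulator of calcineurin, SELP again (0.923) and SLC2A3 (0.903), the neuronal glucose transporter. For MYD88 they were T-BET (0.931), TNFSF13B (0.927) and CD40 (0.925), of which T-BET and TNFSF13B were well above background on 1 and 3 arrays.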

How the data were processed

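RNA was labelled with cyanine 3 by the authors and hybridized to 1-colour Agilent sheep arrays. The deposited files hold the scanned intensity of each of 15744 spots, made with Agilent Feature Extraction 10.1.1.1 according to their headers. The authors also deposited log2 values that they had background corrected and quantile normalized, and these served as an alternative only.

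Analyses used limma 3.58.1 in R 4.3.3. Mean spot signals were background corrected by normexp (offset 50, median local background), 536 control spots and 222 outlier values were left out, arrays were quantile normalized and spots of a probe averaged. Between 69.2 and 76.9% of spots per array were well above background. Of 15008 probes 1656 were named, from the files and the RefSeq sheep gene table, and the probe with the highest mean stood for a listed gene.

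limma's moderated test was fitted over the 4 groups, with Benjamini-Hochberg adjustment over all probes, and was tested on simulated data. Single genes were compared with exact permutation tests, correlations with 100000 permutations. Genes and lists were chosen with earlier results of these data known. The text names the 5 genes, the pathway genes called (1 is counted but not reported here), the microglia markers and the 3 most alike genes, and other named genes were picked after their values were seen.

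Alternatives were other signals and scalings, removal of dim probes, blocks for slide or replicate number, array weights, only the compared groups, the authors' values, each array left out, hypoxia control replicate 1 moved to the group its second label gives and, chosen after seeing the data, second probes and single slides.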

Additional observations from a re-analysis of the deposited data

Results flagged for a closer look

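Hypoxia control replicate 4 stood apart from the other 4 fetuses of its group for MYD88, with a level of 8.29 against 7.22 to 7.45, and the gap to its nearest neighbour was 0.786 of the whole range of the group. This was 1 of 15 groups of 4 or 5 fetuses examined in this way, and chance flags about 1 in 20. The second MYD88 probe, well above background on 2 of 16 arrays, read 6.99 in this fetus, where it was not well above background.

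The effect of hypoxia on CD14 differed between fetuses with and without ketamine by -0.74 in limma's interaction test, whose unadjusted P was 0.0487 and whose adjusted P was 0.779. The difference was 0.95 without ketamine and 0.21 with it. The cause of either result was not tested.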

How the results depend on the processing

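Leaving out each array in turn kept all 4 calls of hypoxia control against normoxia control, with a count of 4 in each of the 16 fits. In hypoxia + ketamine against hypoxia control the count was between 2 and 4, the lowest without hypoxia + ketamine replicate 4, and in the interaction between 0 and 4. For the 27 pathway genes it was between 2 and 9 after hypoxia, against 6, and between 0 and 5 with ketamine before hypoxia, against 2. Between 5 and 9 of the 10 correlations passed, the lowest without hypoxia control replicate 4. After Benjamini-Hochberg adjustment of limma's P the counts of the 5 genes and of the pathway genes were 0 in these comparisons and in the interaction.

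Scaling to the 75th percentile in place of quantile normalization put the median of all probes at -0.16 after hypoxia and at 0.21 with ketamine before hypoxia, in place of -0.020 and 0.018. Under it 2 of the 5 genes (CD14 and NFKBIA) were called after hypoxia, 1 (NFKBIA) with ketamine before hypoxia and 0 in the interaction, with 1 and 0 of the pathway genes. Relative to that median TLR2 was at 0.55 and TLR4 at 0.23 after hypoxia, and at -0.40 and -0.23 with ketamine before hypoxia. With the scanner's processed signal scaled in this way the interaction was called in 3 genes, and 4 pathway genes were lower with ketamine before hypoxia. The interaction, called in 1 gene, was called in 0 with the median spot signal, with a filter on dim probes and with the authors' processed values (CD14 at -0.71, -0.74 and -0.69), in 2 with the mean over the probes of a gene, and in 4 with array weights.

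With hypoxia control replicate 1 counted in normoxia + ketamine the interaction was called in 3 genes and 5 pathway genes were lower with ketamine before hypoxia. With only the compared groups in the fit 2 of the 5 genes and 1 pathway gene were called with ketamine before hypoxia, CD14 and NFKBIA losing their calls at the same differences of -0.60 and -0.81, and CD14 was called 0.35 higher in hypoxia + ketamine than in normoxia control, 1 of 5 against 0. Array weights gave 4 pathway genes lower with ketamine before hypoxia, and the authors' values gave 1. On slide 1 alone NFKBIA lost its call with ketamine before hypoxia (-0.72), and the counts were 1 pathway gene in either comparison and 2 genes in the interaction. On slide 2 alone they were 0 of the 5 genes in both comparisons and in the interaction, and 2 pathway genes after hypoxia. The second TLR4 probe turned the difference after hypoxia to -0.021, which was not called. The cause of these changes was not tested.

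The deviations of same-numbered arrays from their group means correlated at a median of 0.04 over 21 pairs, from -0.11 to 0.37, with 6 pairs over 0.1. Among 74 pairs with different numbers 10 were over 0.1, the highest at 0.20. Since not every same-numbered pair was over 0.1, the main fits took the numbers as names only, a rule that cannot decide whether some pairs were related. The highest values were of same-numbered pairs, 0.37 for replicate 2 of hypoxia control and hypoxia + ketamine and 0.34 for replicate 1 of both normoxia groups. Whether same-numbered fetuses shared a ewe was not tested. With the replicate number as a block the same count of 4 was called after hypoxia, 5 genes were called with ketamine before hypoxia, MYD88 among them at -0.36, 4 in the interaction, and 4 pathway genes were lower with ketamine before hypoxia. The arrays per group, 3 to 5, limit the precision, and probes not well above background carry little about a change.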
